A study of Mus musculus with 9 samples.

Results

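The genes described are the 5 synaptotagmin-like genes (Sytl1 to Sytl5), the small GTPase genes Rab27a and Rab27b, the Rab27 effector gene Myrip and the vesicle priming gene Unc13d. They are 9 of the 32137 genes in the deposited count files, and each was found by its symbol in all 9 libraries. The group was chosen by measured values: Sytl2 and Sytl5 were lower in cells that stayed reporter-negative under R-spondin 1 (Rspo1) than in untreated cells. That comparison is given here as a description, with no test of the 9 genes. Of the 9, 8 passed the filter on low counts and Myrip did not.

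RNA was sequenced from sorted cells of differentiated bile duct organoids, which are hollow epithelial cultures grown from duct cells. All came from a single male mouse of mixed genetic background, genotype Axin2CreERT2+/-; R26-LSL-tdTom+/-. In these cells a tamoxifen-dependent Cre made from the Axin2 locus switches on tdTomato, so the reporter marks cells that used Axin2, a Wnt target gene, while tamoxifen was present. Differentiation took 11 days after an expansion of 2 to 4 days, and every group received 3 uM dexamethasone and 500 nM 4-hydroxytamoxifen in the last 24 h. The untreated group held tdTomato-negative cells without Rspo1. The Rspo1 tdTom-negative and Rspo1 tdTom-positive groups held the cells without and with the reporter from organoids given Rspo1 at 100 ng/ml, a secreted agonist that amplifies Wnt signals. Each group had 1 library at each of passages 5, 6 and 10, so n = 3 per group. The 9 libraries are repeated cultures of 1 line, not animals, and p-values measure the spread between those cultures. There was no group of tdTomato-positive untreated cells, so treatment and sorting gate both differ between Rspo1 tdTom-positive and untreated cells.

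Rab27 proteins sit on secretory vesicles and lysosome-related organelles and, when loaded with GTP, recruit effectors that carry the vesicle to the plasma membrane. The synaptotagmin-like proteins bind Rab27 through an amino-terminal domain and membrane lipids through C2 domains, and so tether vesicles at the surface. Myrip links Rab27 vesicles to myosin and actin, and the product of Unc13d, Munc13-4, primes docked vesicles for fusion. In polarised epithelia, Rab27 and its effectors are known for the delivery of vesicles to the apical surface that lines a lumen.

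Total counts per library ranged from 23423979 to 37351448, and 17011 genes were tested. Axin2, the gene behind the reporter, was at 1.32 to 5.96 CPM (counts divided by the scaled library size) in untreated libraries, 44.4 to 124 CPM in Rspo1 tdTom-negative libraries and 75.7 to 155 CPM in Rspo1 tdTom-positive libraries, so the Rspo1 tdTom-negative cells also held high Axin2 RNA. Duct epithelium markers (10 of 10 detected in each library) summed to 13240 to 16100 CPM in untreated, 14690 to 17690 in Rspo1 tdTom-negative and 12120 to 12250 in Rspo1 tdTom-positive libraries. The haematopoietic list summed to 53.53 to 76.68 CPM over the libraries: its macrophage-associated genes Cd68 (5.34 to 23 CPM) and Itgam (5.29 to 14 CPM) were detected in every library, while Ptprc, Lyz2 and Cd3e stood at 0 to 0.134 CPM. Cd68 and Itgam did not make up the whole sum, and Csf1r was the other gene of that list that passed the filter on low counts. The hepatocyte list summed to 168.6 to 441.1 CPM in untreated, 270.5 to 544.8 in Rspo1 tdTom-negative and 204.1 to 312.5 in Rspo1 tdTom-positive libraries, most of it Ttr (149 to 534 CPM), with Alb at 3.91 to 15.3 CPM and Cyp3a11 and Cps1 at no more than 1 count in any library. The part of these genes in the members' differences was not tested. The endothelial gene Cdh5 was at 0. The mesenchyme list reached at most 1.93 CPM in sum and the endothelium list at most 1.29 CPM. Ribosomal RNA genes took 0.499% to 20.9% of the counts, most in the Rspo1 tdTom-positive and Rspo1 tdTom-negative libraries of passage 6. In bulk samples such as these, fewer cells that express a gene and less RNA per cell cannot be told apart.

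Promoter sequence was used for 6 of the 9 genes (Sytl1, Sytl3, Sytl4, Sytl5, Rab27a and Myrip) from a RefSeq table of GRCm38.p6. Each window was the 250 bases before and 50 bases after an annotated start. No window of Sytl2, Rab27b or Unc13d was searched. The 250 bases before the start are shown for a gene that was low in Rspo1 tdTom-negative cells (Sytl5), a gene that was not (Sytl1) and a GTPase gene whose levels overlapped between the groups (Rab27a, its upstream start), with CpG pairs in capitals. They lie at chrX:9885371-9885620 (plus strand), chr4:133263088-133263337 (minus strand) and chr9:73044560-73044809 (plus strand).
Sytl5: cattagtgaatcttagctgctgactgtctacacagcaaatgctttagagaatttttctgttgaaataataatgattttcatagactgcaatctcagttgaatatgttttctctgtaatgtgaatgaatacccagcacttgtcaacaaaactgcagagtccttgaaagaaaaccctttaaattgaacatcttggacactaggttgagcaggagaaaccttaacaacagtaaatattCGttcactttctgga
Sytl1: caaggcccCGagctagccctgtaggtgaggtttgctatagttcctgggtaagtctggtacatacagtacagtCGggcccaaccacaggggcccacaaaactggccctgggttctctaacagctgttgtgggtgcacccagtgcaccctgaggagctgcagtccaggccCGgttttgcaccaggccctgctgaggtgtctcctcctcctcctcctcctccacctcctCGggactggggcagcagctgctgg
Rab27a: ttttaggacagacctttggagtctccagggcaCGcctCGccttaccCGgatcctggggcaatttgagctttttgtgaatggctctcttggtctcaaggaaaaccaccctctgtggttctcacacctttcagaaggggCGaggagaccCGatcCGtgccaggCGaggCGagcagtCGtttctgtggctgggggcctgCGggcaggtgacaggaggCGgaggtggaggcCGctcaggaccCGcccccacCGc
The Sytl5 stretch held 1 CpG and was 35.2% G or C, against 4 CpG and 61.6% for Sytl1 and 14 CpG and 62.0% for Rab27a. Over the whole window of 300 bases the GC content of Sytl5 was 37.0%, and 5.78% of the 32851 promoters in the table had a lower one. The windows were searched on both strands for CTTTGAA, the further form CTTTGAT, the further form CTTTGTA and the further form CTTTGTT, which are matches to the motif bound by TCF/LEF factors, the DNA-binding partners of beta-catenin. None of the 7 windows of these 6 genes (2 for Rab27a) held a match, while 16.9% of all promoters in the table did. This says only that these letters are not in these windows.

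Levels between genes were compared as FPKM, which divide counts by gene length and library size, since these values take account of length. In untreated cells the order of mean FPKM was Rab27b at 12.6 ± 2.23 (SD, n = 3), Unc13d at 12.0 ± 3.99, Sytl2 at 11.7 ± 5.07, Sytl5 at 7.76 ± 3.19, Rab27a at 6.69 ± 1.33 and Sytl1 at 6.40 ± 1.46. The mean ± SD ranges of neighbours in that order overlapped. Sytl4 at 0.545 ± 0.166 and Sytl3 at 0.228 ± 0.0507 were an order of magnitude below the rest, and Myrip had 1 count in 1 untreated library. The organoid cells thus held RNA of both GTPases, of 3 tethering proteins and of the priming factor at levels of the same order. In Rspo1 tdTom-negative cells the leading genes were Unc13d at 15.1 ± 4.70 FPKM and Sytl1 at 9.29 ± 2.47, and Sytl2 and Sytl5 stood at 2.23 ± 1.32 and 1.29 ± 0.551.

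**Figure D1:**
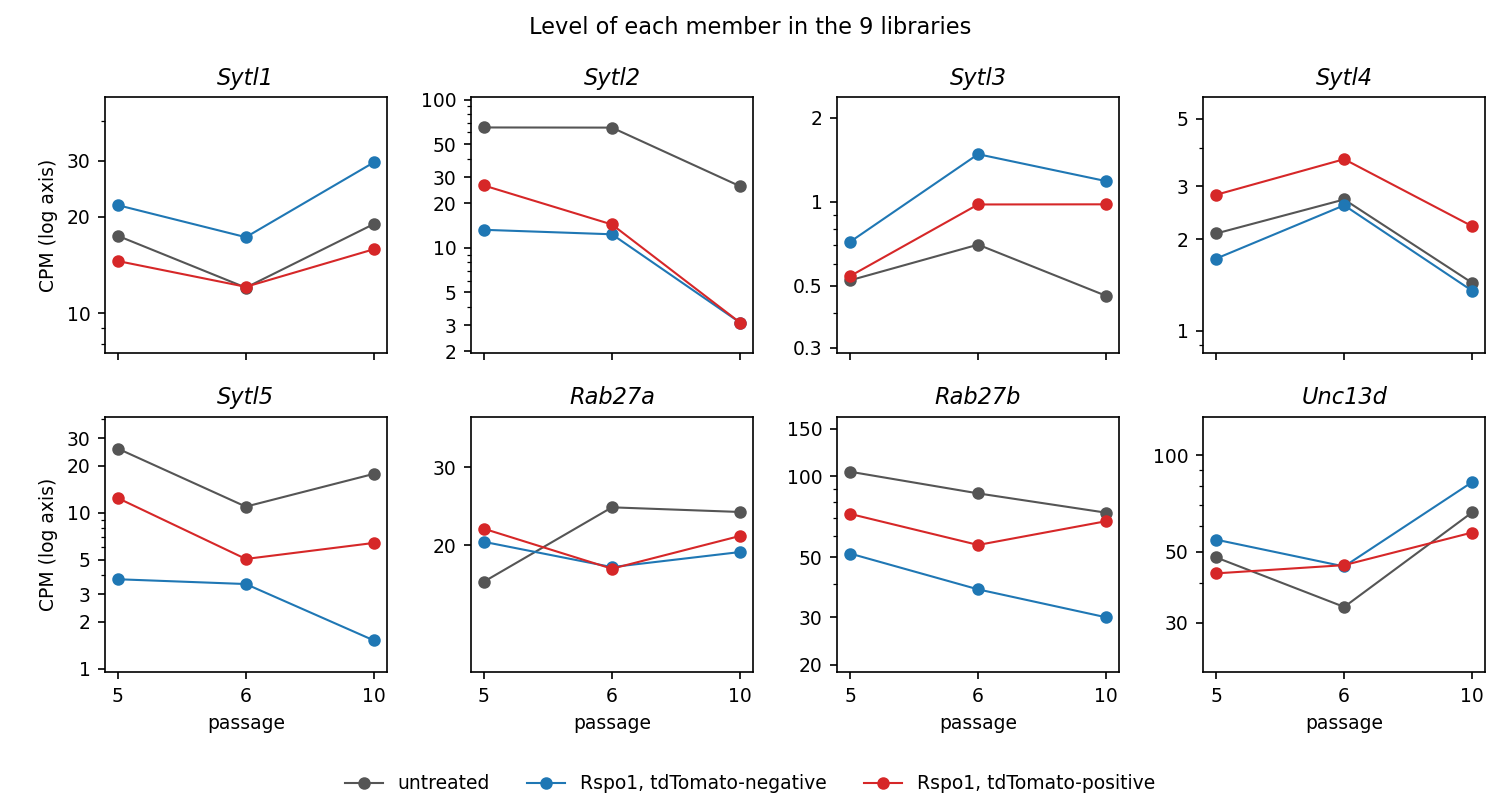
Level of the 8 tested genes in each library in CPM (log axis, scale set per gene) against passage; 1 point is 1 library and lines join the libraries of a group. Untreated libraries lie above both Rspo1 groups at each passage for Sytl2 (64.9, 64.7 and 26.1 CPM) and Sytl5, and Sytl2 is lowest at passage 10 in every group.

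Sytl2 encodes Slp2-a, a tether that binds Rab27 and plasma membrane phospholipids. Its gene lies at chr7:90302252-90410719 on the plus strand (GRCm38). Its level in passages 5, 6 and 10 was 64.9, 64.7 and 26.1 CPM in untreated cells, from 905 to 2108 counts. It was 13.2, 12.3 and 3.13 CPM in Rspo1 tdTom-negative cells and 26.3, 14.4 and 3.13 CPM in Rspo1 tdTom-positive cells. Both Rspo1 groups were below the untreated library of the same passage in all 3 passages, and the highest Rspo1 tdTom-positive library (passage 5) was level with the lowest untreated one (passage 10). Against untreated cells of the same passage, Rspo1 tdTom-negative cells had 4.90, 5.24 and 8.31 times less Sytl2, a fitted log2 fold change of -2.43 (SE 0.71).

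For Rspo1 tdTom-positive against untreated cells, which share the untreated libraries with the comparison used to choose the genes, the log2 fold change of Sytl2 was -1.82 (SE 0.69, adjusted p = 0.187, edgeR quasi-likelihood test with Benjamini-Hochberg adjustment over all tested genes). Same-numbered libraries share a passage, and with passage as a block the value was -2.12 (SE 0.26) and the adjusted p by edgeR 0.000246. Within passages 5, 6 and 10 the level was 2.46, 4.50 and 8.31 times lower. Between the Rspo1 groups Sytl2 was not separated: the log2 fold change of Rspo1 tdTom-positive against Rspo1 tdTom-negative was 0.61 (95% interval -0.90 to 2.11, edgeR adjusted p = 0.551). That value rested on 1 library, since it was -0.14 without the Rspo1 tdTom-positive library of passage 5.

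Sytl5 encodes a Rab27-binding protein of the same family, and its gene lies at chrX:9885622-9994543 on the plus strand. Its level in passages 5, 6 and 10 was 25.7, 10.9 and 17.7 CPM in untreated cells. It was 3.75, 3.50 and 1.52 CPM in Rspo1 tdTom-negative cells, from 36 to 141 counts, and 12.4, 5.06 and 6.41 CPM in Rspo1 tdTom-positive cells. The 3 groups formed steps at every passage, with untreated highest, Rspo1 tdTom-positive between and Rspo1 tdTom-negative lowest. Against untreated cells of the same passage, Rspo1 tdTom-negative cells had 6.86, 3.13 and 11.6 times less Sytl5, a fitted log2 fold change of -2.62 (SE 0.45).

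Between the 2 sorted fractions of Rspo1-treated organoids, Sytl5 was higher in the reporter-positive one by 3.31, 1.45 and 4.2 times at passages 5, 6 and 10. The groups did not overlap, as in 45.2% of all tested genes. The log2 fold change was 1.44 (SE 0.44, edgeR adjusted p = 0.0372). This comparison shares the Rspo1 tdTom-negative libraries with the choice of the genes. The call was lost in 8 of 16 alternatives, among them leaving out any of the 6 compared libraries but the Rspo1 tdTom-positive one of passage 6; the values then ran from 0.96, without the Rspo1 tdTom-positive library of passage 5, to 1.66. With passage as a block the adjusted p by edgeR was 0.00423. Against untreated cells, the Rspo1 tdTom-positive level was 2.07, 2.16 and 2.77 times lower by passage. The log2 fold change was -1.18 (SE 0.42, edgeR adjusted p = 0.163), and with the block -1.22 (SE 0.27, adjusted p = 0.0113).

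**Figure D2:**
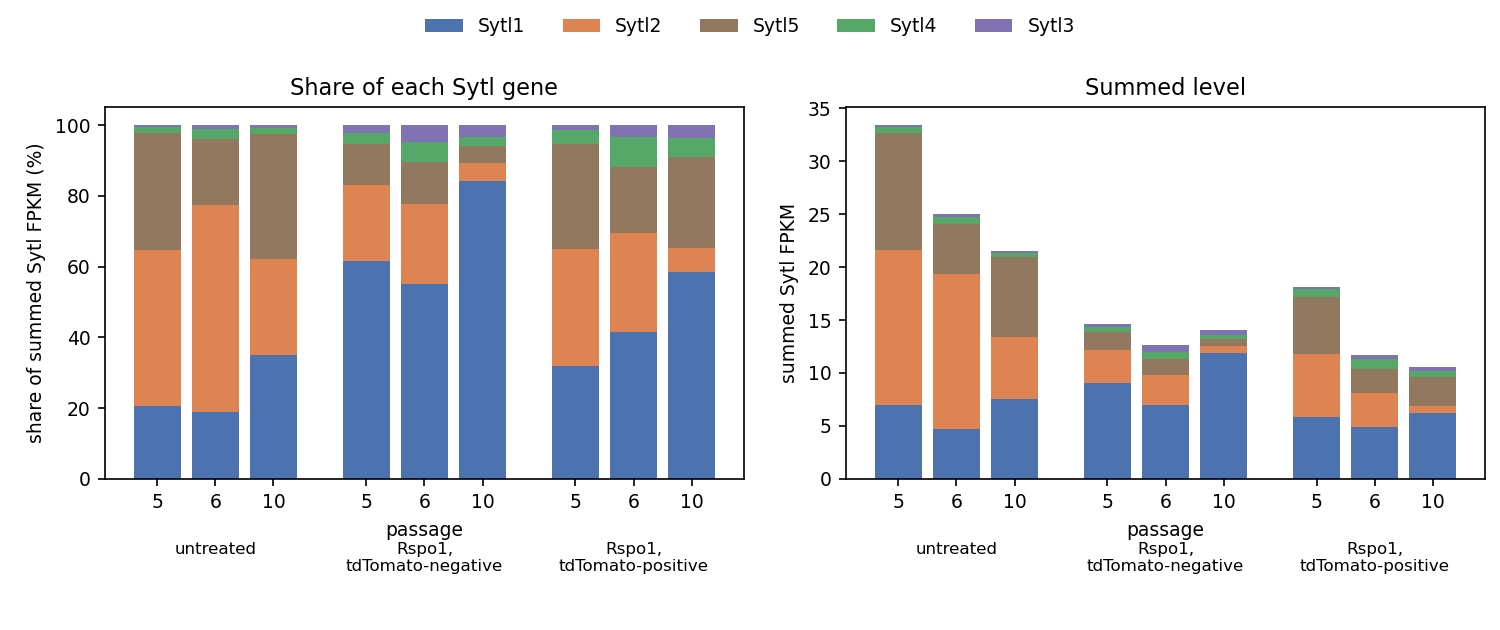
Left, share of each Sytl gene in the summed FPKM of the 5 Sytl genes, in percent; right, the sum in FPKM, stacked by gene; 1 bar is 1 library. Sytl1 takes 55.1% to 84.2% of the sum in Rspo1 tdTom-negative libraries and 19.0% to 34.9% in untreated ones.

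Summed over the 5 genes, Sytl FPKM in passages 5, 6 and 10 was 33.5, 25.03 and 21.5 in untreated cells, 14.7, 12.6 and 14.1 in Rspo1 tdTom-negative cells and 18.1, 11.7 and 10.6 in Rspo1 tdTom-positive cells. Sytl2 led the family in 2 untreated libraries and Sytl5 in the third, at passage 10. Sytl1 led in all 3 Rspo1 tdTom-negative libraries, with 61.7%, 55.1% and 84.2% of the sum. In Rspo1 tdTom-positive cells the lead passed from Sytl2 at passage 5 (33.1%, with Sytl1 at 32.0%) to Sytl1 at passages 6 and 10 (41.4% and 58.6%). The composition is a description, since it rests on the genes by which the group was chosen. FPKM were also not adjusted for the trend of group differences with GC content, given below. The Sytl1 transcript is 58.9% G or C, against 44.6% for Sytl2 and 46.0% for Sytl5. The part of that trend in the shares was not tested.

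Sytl1, whose protein Slp1 is a Rab27 effector of secretory cells, lies at chr4:133253090-133263113 on the minus strand. It was at 17.5, 12.0 and 19.0 CPM in untreated, 21.8, 17.3 and 29.6 CPM in Rspo1 tdTom-negative and 14.6, 12.1 and 15.8 CPM in Rspo1 tdTom-positive cells. Rspo1 tdTom-negative libraries were the highest of the 3 at every passage, opposite to Sytl2 and Sytl5. The excess over untreated cells was smaller in a fit that took account of GC content and transcript length, given below. Rspo1 tdTom-positive against Rspo1 tdTom-negative gave a log2 fold change of -0.69 (SE 0.24, edgeR adjusted p = 0.0545), with no overlap between the groups, as in 45.2% of all tested genes. With passage as a block it was -0.67 (SE 0.14) and passed, with an adjusted p by edgeR of 0.00367, and the test passed in 8 of 16 alternatives. Rspo1 tdTom-positive and untreated cells were not separated (log2 fold change -0.19, 95% interval -0.71 to 0.33, edgeR adjusted p = 0.775).

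Sytl4, which encodes granuphilin, the tether of insulin granules, was low in all libraries, at 1.36 to 3.68 CPM from 32 to 114 counts. Within each passage it was highest in Rspo1 tdTom-positive cells, at 2.81, 3.68 and 2.21 CPM against 1.73, 2.59 and 1.36 CPM in Rspo1 tdTom-negative cells. The difference did not pass in the fit without passage (log2 fold change 0.61, SE 0.34, edgeR adjusted p = 0.219). It passed with passage as a block (0.63, SE 0.21, adjusted p = 0.0365), where 38.9% of all tested genes did, and in 1 of 16 alternatives. In the fit that took account of GC content and transcript length it was 0.35 (edgeR adjusted p = 0.539). With the block added to that fit it was 0.37 (adjusted p = 0.222), so neither passed. Sytl3 was the least abundant tested member, at 0.461 to 1.48 CPM from 16 to 36 counts. Its lowest Rspo1 tdTom-negative library (0.719 CPM) was above its highest untreated library (0.702 CPM), where 36.3% of all tested genes had no overlap. That gap was smaller than counting error at 21 to 27 counts. Rspo1 tdTom-positive against untreated gave 0.56 on the log2 scale (SE 0.41, edgeR adjusted p = 0.555).

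Rab27b was the more abundant GTPase gene in untreated cells, with 2.89, 1.63 and 1.42 times the FPKM of Rab27a in passages 5, 6 and 10. In Rspo1 tdTom-positive cells this ratio was 1.53, 1.44 and 1.49, and in Rspo1 tdTom-negative cells 1.17, 0.980 and 0.714. The level of Rab27b was 104, 86.4 and 73.3 CPM in untreated, 51.7, 38.1 and 29.98 CPM in Rspo1 tdTom-negative and 72.5, 55.6 and 68.1 CPM in Rspo1 tdTom-positive cells, with no overlap between any pair of groups. Of all tested genes, 36.3% had no overlap in Rspo1 tdTom-negative against untreated cells, 45.2% between the sorted fractions and 23.2% in Rspo1 tdTom-positive against untreated cells. Rab27a (chr9:73044854-73097629, plus strand) ranged only from 16.6 to 24.4 CPM over the 9 libraries. For Rab27a no comparison passed: Rspo1 tdTom-positive against Rspo1 tdTom-negative gave 0.07 (95% interval -0.32 to 0.46, edgeR adjusted p = 0.799) and Rspo1 tdTom-positive against untreated -0.10 (95% interval -0.48 to 0.29, adjusted p = 0.866). Of its exon bases, 3.84% are shared with the pseudogene Gm27186.

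Rab27b was 2.01, 2.27 and 2.44 times lower in Rspo1 tdTom-negative than in untreated cells by passage, a log2 fold change of -1.14 (SE 0.21). It was higher in Rspo1 tdTom-positive than in Rspo1 tdTom-negative cells by 0.71 (SE 0.21, edgeR adjusted p = 0.0308). That call was lost without the Rspo1 tdTom-positive library of passage 5 or 10, or the Rspo1 tdTom-negative library of passage 6 or 10, at values of 0.49 to 0.68. Both values changed in a fit that took account of GC content and transcript length together. Across tested genes the Spearman correlation of the log2 fold change with transcript GC content was 0.496 for Rspo1 tdTom-negative against untreated, -0.504 for Rspo1 tdTom-positive against Rspo1 tdTom-negative and -0.0134 for Rspo1 tdTom-positive against untreated; genes are not independent replicates. With transcript length it was -0.307 in the first and 0.311 in the second. The Rab27b transcript is 37.9% G or C, and 2.24% of tested genes have less; it is 6891 nt long, and 92.5% of tested genes are shorter. Tested genes were split by GC content into 5 equal classes. In the class with the lowest GC content, to which it belongs, the median log2 fold change of Rspo1 tdTom-negative against untreated was -0.65. In a fit with an offset for each library's trend on GC content and length, Rab27b was at -0.11 (SE 0.17) for Rspo1 tdTom-negative against untreated. In that fit Rspo1 tdTom-positive against Rspo1 tdTom-negative turned to -0.34 (edgeR adjusted p = 0.235), the opposite direction and not passing the test. GC content and length were not fitted apart, so their parts in these changes cannot be told apart here.

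In the same fit Sytl5 and Sytl2 were at -2.53 (SE 0.43) and -2.06 (SE 0.68) for Rspo1 tdTom-negative against untreated cells, the comparison by which they were chosen. Their transcripts are 46.0% and 44.6% G or C, in the class with the next lowest GC content, where the median log2 fold change of Rspo1 tdTom-negative against untreated was -0.22. With that offset and no block, Sytl5 did not pass in Rspo1 tdTom-positive against Rspo1 tdTom-negative cells (1.27, SE 0.42, edgeR adjusted p = 0.0884). Rspo1 tdTom-positive against untreated gave -1.91 for Sytl2 (adjusted p = 0.137), -1.26 for Sytl5 (adjusted p = 0.106) and -0.45 for Rab27b (adjusted p = 0.169), none passing. With the trend taken out and passage as a block, 23.5% of all tested genes passed between the sorted fractions. Sytl5 was then higher in Rspo1 tdTom-positive than in Rspo1 tdTom-negative cells by 1.21 (SE 0.28, edgeR adjusted p = 0.0116). Against untreated cells that fit placed Rspo1 tdTom-positive Sytl2 at -2.19 (SE 0.24, adjusted p = 0.000101), Sytl5 at -1.30 (SE 0.25, adjusted p = 0.00505) and Rab27b at -0.44 (SE 0.12, adjusted p = 0.0281), where 16.2% of all tested genes passed. Sytl1 between the sorted fractions did not pass in the fit with offset and block (-0.35, adjusted p = 0.0587), nor with the offset alone (-0.36, edgeR adjusted p = 0.288). For Rspo1 tdTom-negative against untreated cells Sytl1 was at 0.50 in the fit on group and at 0.16 with the offset. Its transcript is 58.9% G or C, in the class with the highest GC content, where the median in that comparison was 0.26.

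**Figure D3:**
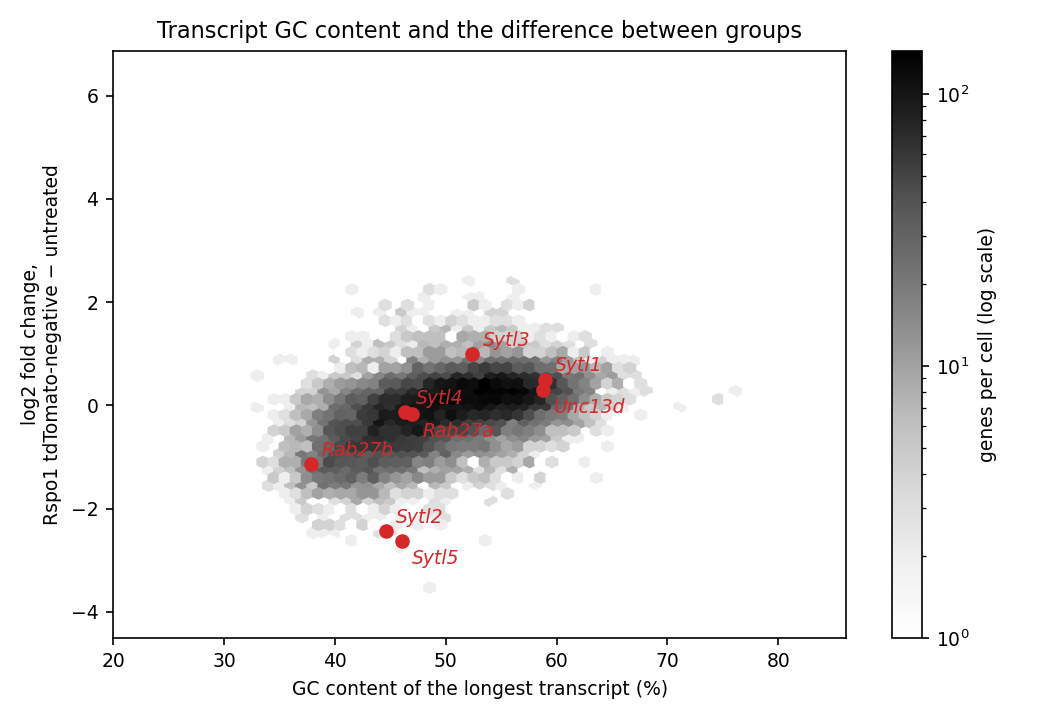
GC content of the longest transcript in percent (x) against the log2 fold change of Rspo1 tdTom-negative against untreated cells (y) for the tested genes, shaded by number of genes on a log scale, with the 8 tested members in red. The cloud of genes slopes upward with GC content (Spearman 0.496); Rab27b is at -1.14, Sytl2 at -2.43 and Sytl5 at -2.62, and nothing is read from the low place of Sytl2 and Sytl5, which were chosen for these values.

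Unc13d, on chr11:116062095-116077961 of the minus strand, was at 48.0, 33.6 and 66.4 CPM in untreated, 54.5, 45.0 and 82.5 CPM in Rspo1 tdTom-negative and 42.8, 45.4 and 57.4 CPM in Rspo1 tdTom-positive cells. The 3 groups overlapped and no tested comparison of groups passed: Rspo1 tdTom-positive against Rspo1 tdTom-negative gave -0.32 (95% interval -0.91 to 0.27, edgeR adjusted p = 0.412) and Rspo1 tdTom-positive against untreated -0.02 (95% interval -0.62 to 0.57, adjusted p = 0.984). Myrip had 1 count in an untreated library, 1 in a Rspo1 tdTom-negative library and 0 in the other 7. All 9 were under the floor of 3 counts, which corresponds to 0.0739 to 0.127 CPM in these libraries, so no fold is given.

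Counted over the members, 3 of the 8 tested genes passed in Rspo1 tdTom-negative against untreated cells (Sytl2, Sytl5 and Rab27b, all lower), where 21.9% of all tested genes did; nothing is read from this count, as that comparison chose the genes. Between the Rspo1 tdTom-positive and Rspo1 tdTom-negative groups 2 of 8 passed (Sytl5 and Rab27b, higher) against 24.3% of all tested genes, a share near the background. Between Rspo1 tdTom-positive and untreated cells 0 of 8 passed by edgeR against 5.21% of all tested genes, and 2 of 8 (Sytl2 and Sytl5) had an unadjusted p under 0.05, as did 17.5% of all tested genes. DESeq2 without passage also called 0 there. With passage as a block 2 of 8 passed (Sytl2 and Sytl5, lower), where 13.2% of all tested genes did, and 4 of 8 between the sorted fractions (Sytl4, Sytl5 and Rab27b higher, Sytl1 lower), where 38.9% did.

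The authors' deposited table lists 7 of the 9 genes, Sytl3 and Myrip not among them. For Rspo1 tdTom-positive against untreated cells the authors' deposited table gives log2 fold changes of -2.16 for Sytl2 (adjusted p = 0.000207), -1.20 for Sytl5 (adjusted p = 1.11e-07) and -0.41 for Rab27b (adjusted p = 0.0426). For Rspo1 tdTom-positive against Rspo1 tdTom-negative cells the authors' deposited table gives 1.42 for Sytl5 (adjusted p = 8.63e-06), 0.72 for Rab27b (adjusted p = 3.85e-05) and -0.69 for Sytl1 (adjusted p = 0.000118).

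**Figure D4:**
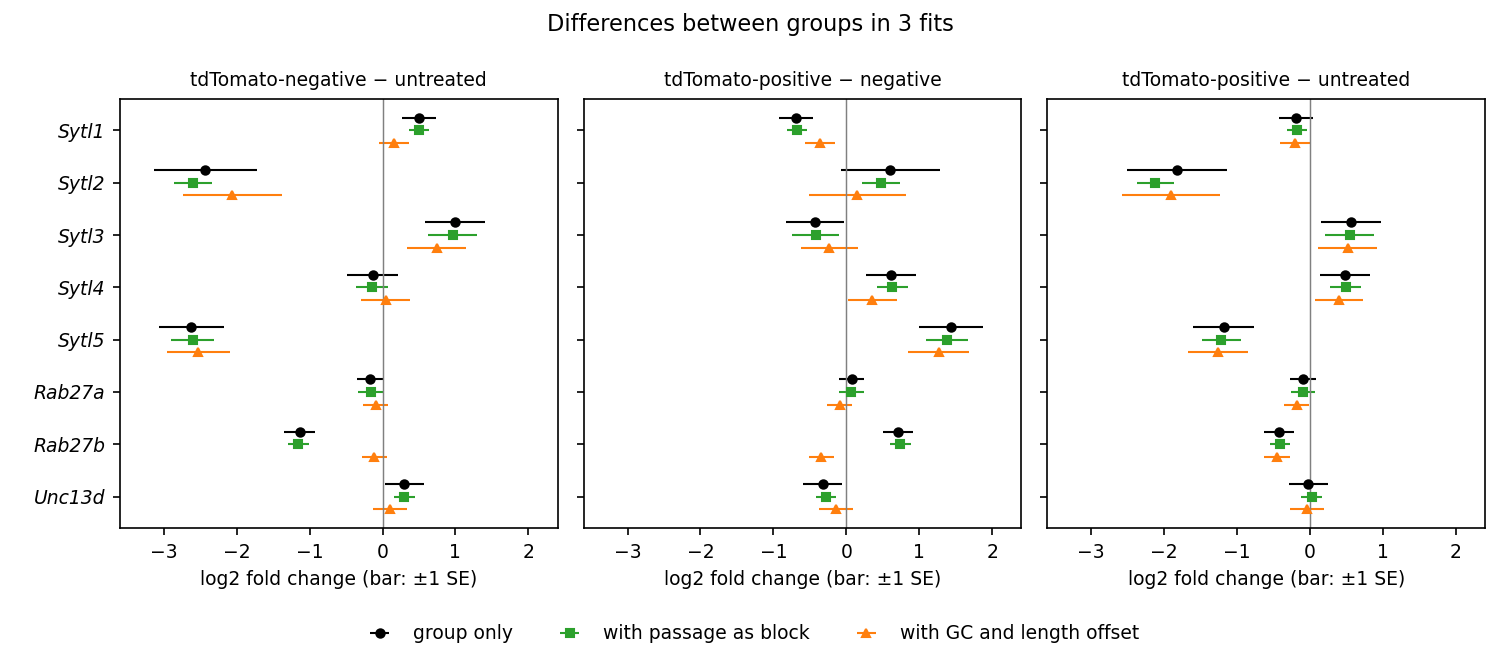
Log2 fold change (x, bars ±1 SE) of the 8 tested genes in 3 comparisons of groups, from fits with group only (circles), with passage as a block (squares) and with a GC and length offset (triangles). Sytl2 and Sytl5 lie left of 0 against untreated cells in all 3 fits, and Rab27b crosses 0 with the offset in the middle panel. Nothing is read from Sytl2 and Sytl5 in the left panel, as they were chosen for those values.

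Passage was crossed with group, so it could be compared apart from the comparison that chose the genes. Each passage was cultured in 1 set of 3 libraries, and its 2 Rspo1 libraries are sorted fractions of organoids given the same treatment, so the 3 libraries are not independent replicates of a passage. Passage and the culture of that set cannot be told apart, and the p-values for passage measure only how evenly the 3 groups differ between sets. From passage 5 to passage 10, 2 of the 8 members passed, where 9.07% of all tested genes did. Sytl2 fell, with a log2 fold change of -2.10 (SE 0.26, edgeR adjusted p = 0.00135 in a fit of group and passage), and the call held in all 9 alternatives run. The level at passage 10 was 2.49 times lower than at passage 5 in untreated, 4.22 times lower in Rspo1 tdTom-negative and 8.41 times lower in Rspo1 tdTom-positive cells. Whether these folds differ between groups was not tested, as each rests on 1 library per passage. From passage 5 to 6 Sytl2 gave -0.36 (95% interval -0.90 to 0.18, adjusted p = 0.54). Unc13d rose from passage 5 to 10 by 0.50 (SE 0.14, edgeR adjusted p = 0.0464), with all passage 10 libraries above all passage 5 libraries, but 7 of 9 alternatives lost the call, among them leaving out any 1 of the 6 libraries of these passages, with values from 0.40 to 0.61. Libraries of these 2 passages did not overlap in 16.7% of all tested genes. Sytl5 gave -0.83 (adjusted p = 0.0792) at passage 10 and -0.90 (adjusted p = 0.133) at passage 6, both against passage 5. At passage 6, 0 of 8 members passed by edgeR (2.49% of all tested genes); Sytl1, Sytl3, Sytl5 and Rab27b had an unadjusted p under 0.05, as did 15.4% of all tested genes, and DESeq2 called 1.

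Other genes moved with passage too. From passage 5 to 10, 1 of 10 duct genes passed (Sox9, higher by 0.93, SE 0.14), and the duct list median was -0.03 against 0.01 over all tested genes. Of the hepatocyte list 4 of 10 genes were tested: Fgb passed higher (3.95, SE 0.87), Ttr (-0.99, SE 0.19) and Apoa1 (-1.69, SE 0.47) passed lower and Alb did not pass. Of the haematopoietic list 3 of 10 were tested: Itgam passed higher (1.09, SE 0.16), Cd68 lower (-1.39, SE 0.17) and Csf1r did not pass. In each of the mesenchyme and endothelium lists 2 genes were tested and 0 passed. The marker lists thus moved in both directions, and their part in the passage difference of Sytl2 was not tested.

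The wider machinery was read from lists of other Rab27 effectors and regulators, other secretory Rab GTPases, SNAREs with Sec1/Munc18 proteins, other C2-domain and priming proteins, and the exocyst. Between Rspo1 tdTom-positive and untreated cells, 1 of the 76 tested list genes passed (Mlph, lower), where 5.21% of all tested genes did; 21.9% passed in Rspo1 tdTom-negative against untreated cells and 24.3% between the sorted fractions. Mlph encodes melanophilin, the Rab27a effector that links melanosomes to myosin Va. It stood at 426, 425 and 373 CPM in untreated, 387, 364 and 308 CPM in Rspo1 tdTom-negative and 277, 214 and 196 CPM in Rspo1 tdTom-positive cells. Its Rspo1 tdTom-positive libraries were below all others. Groups did not overlap in 23.2% of all tested genes against untreated and in 45.2% against Rspo1 tdTom-negative cells. The log2 fold change of Mlph was -0.83 against untreated (SE 0.17, edgeR adjusted p = 0.0156) and -0.62 against Rspo1 tdTom-negative cells (SE 0.17, adjusted p = 0.0209). With that offset the first value was -0.87 (adjusted p = 0.0179) and the second -0.58 (adjusted p = 0.0723).

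Among the other Rab27 effectors and regulators (14 of 15 tested), 1 passed higher and 3 lower in Rspo1 tdTom-negative than in untreated cells, where 21.9% of all tested genes passed. The list median was -0.14 on the log2 scale against -0.02 over all tested genes. The lower genes included Chm and Chml, which encode the Rab escort proteins that present Rabs for prenylation. Chm was at 15.8, 13.4 and 15.9 CPM in untreated, 7.16, 6.17 and 3.98 CPM in Rspo1 tdTom-negative and 14.3, 11.5 and 15.5 CPM in Rspo1 tdTom-positive cells. The Rspo1 tdTom-negative libraries were below all others. Groups did not overlap in 45.2% of all tested genes against Rspo1 tdTom-positive and in 36.3% against untreated cells. Rspo1 tdTom-negative against untreated cells gave -1.38 for Chm (SE 0.23, edgeR adjusted p = 0.00317). Chml gave -1.40 in that comparison (adjusted p = 0.00244) and 1.62 in Rspo1 tdTom-positive against Rspo1 tdTom-negative cells (adjusted p = 0.00195). Tbc1d10a, a Rab GTPase-activating protein, was higher in Rspo1 tdTom-negative than in untreated cells by 0.53 (adjusted p = 0.0226), and Tbc1d10b was lower in Rspo1 tdTom-positive than in Rspo1 tdTom-negative cells by -0.35 (adjusted p = 0.0366).

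These calls changed with the joint offset for GC content and length. Chm and Chml transcripts are 37.0% and 40.4% G or C and 4868 and 6905 nt long, and that of Tbc1d10a is 60.6% G or C. With that offset Chm was at -0.50 (edgeR adjusted p = 0.103), Chml at -0.52 (adjusted p = 0.102) and Tbc1d10a at 0.16 (adjusted p = 0.554) in Rspo1 tdTom-negative against untreated cells. In Rspo1 tdTom-positive against Rspo1 tdTom-negative cells Chml still passed with the offset (0.69, adjusted p = 0.0422), and Tbc1d10b did not.

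Of the other secretory Rabs (12 of 14 tested), 0 passed higher and 2 lower in Rspo1 tdTom-negative against untreated cells, and 1 higher and 3 lower in Rspo1 tdTom-positive against Rspo1 tdTom-negative cells. The shares of all tested genes that passed were 21.9% and 24.3%. Rab8b, a Rab of the route to the plasma membrane, gave -0.96 and 0.997 in these comparisons (edgeR adjusted p = 0.00737 and 0.00624), and Rab10 gave -0.63 in the first (adjusted p = 0.0166). Rab3d, a Rab of zymogen and other secretory granules, was lower in Rspo1 tdTom-positive than in Rspo1 tdTom-negative cells by -0.71 (adjusted p = 0.0183), and Rab25, an epithelial recycling Rab, by -0.52 (adjusted p = 0.0165). With the offset Rab8b was at -0.24 and 0.22, neither passing, and Rab3d at -0.61 (adjusted p = 0.057). Rab10 also did not pass with the offset in Rspo1 tdTom-negative against untreated cells.

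Of the SNAREs and Sec1/Munc18 proteins (18 of 21 tested), 0 passed higher and 3 lower in Rspo1 tdTom-negative against untreated cells, and 3 higher and 2 lower between the sorted fractions. The shares of all tested genes that passed were 21.9% and 24.3%. Vamp8, a vesicle SNARE of regulated secretion in exocrine cells, stood at 214, 249 and 197 CPM in untreated, 327, 249 and 276 CPM in Rspo1 tdTom-negative and 159, 138 and 156 CPM in Rspo1 tdTom-positive cells. Rspo1 tdTom-positive libraries were the lowest, by -0.91 against Rspo1 tdTom-negative cells (SE 0.15, edgeR adjusted p = 0.00329), and with the offset by -0.73 (adjusted p = 0.0207). Groups did not overlap in 45.2% of all tested genes in this comparison and in 23.2% against untreated cells. Snap23, the plasma membrane SNARE of non-neuronal cells, gave -0.80 (adjusted p = 0.0138) in Rspo1 tdTom-negative against untreated cells. The Sec1/Munc18 gene Stxbp3 gave -0.86 (adjusted p = 0.00226) in that comparison. With the offset Snap23 was at -0.31 (adjusted p = 0.26) and Stxbp3 at -0.41 (adjusted p = 0.0539). Stxbp5, which encodes tomosyn, an inhibitor of SNARE assembly, was higher in Rspo1 tdTom-positive than in Rspo1 tdTom-negative cells by 0.91 (adjusted p = 0.00314) and stood at -0.03 with the offset. Napa, the SNARE disassembly adaptor alpha-SNAP, was lower in that comparison by -0.44 (adjusted p = 0.0306) and at -0.18 with the offset.

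Of the other C2-domain and priming proteins (23 of 31 tested), 1 passed higher and 2 lower in Rspo1 tdTom-negative against untreated cells, and 4 higher and 1 lower between the sorted fractions. The shares of all tested genes that passed were 21.9% and 24.3%. Unc13a, which encodes the priming protein Munc13-1, was at 117, 122 and 121 CPM in untreated, 151, 151 and 150 CPM in Rspo1 tdTom-negative and 106, 103 and 110 CPM in Rspo1 tdTom-positive cells. Its groups did not overlap, where 23.2% to 45.2% of all tested genes had no overlap in a given pair of groups. Rspo1 tdTom-positive against Rspo1 tdTom-negative gave -0.50 (SE 0.10, edgeR adjusted p = 0.00816), or -0.79 with the offset (adjusted p = 0.0133). Rspo1 tdTom-negative against untreated gave 0.33 (adjusted p = 0.0452), or 0.60 with the offset (adjusted p = 0.0312). Esyt2, a tether between the endoplasmic reticulum and the plasma membrane, was lower in Rspo1 tdTom-negative than in untreated cells by -0.93 (adjusted p = 0.00118), and by -0.39 with the offset (adjusted p = 0.0437). Syt14 gave -1.09 (adjusted p = 0.00246) in that comparison and 0.95 (adjusted p = 0.00492) between the sorted fractions, and -0.21 and 0.00 with the offset. Rims2 gave 0.84 between the sorted fractions (adjusted p = 0.0363) and did not pass there with the offset.

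All 9 exocyst genes, whose products tether vesicles at the plasma membrane, were tested. In Rspo1 tdTom-negative against untreated cells 1 passed higher and 2 lower, with a median of -0.35. Over all tested genes 21.9% passed there and the median was -0.02. Between the sorted fractions 3 exocyst genes passed higher and 1 lower, with a median of 0.33. Over all tested genes 24.3% passed there and the median was 0.03. Exoc5 was at 45.6, 43.4 and 41.2 CPM in untreated, 19.9, 15.8 and 14.1 CPM in Rspo1 tdTom-negative and 35.3, 30.4 and 40.6 CPM in Rspo1 tdTom-positive cells, a log2 fold change of -1.38 for Rspo1 tdTom-negative against untreated (SE 0.17, edgeR adjusted p = 0.00105). Its transcript is 38.1% G or C, and with the offset the value was -0.15 (adjusted p = 0.647). Exoc1 gave -0.57 (adjusted p = 0.0261) and Exoc7 0.47 (adjusted p = 0.0187), and with the offset -0.11 and 0.23. With the offset 0 exocyst genes passed in Rspo1 tdTom-negative against untreated cells, where 7.81% of all tested genes did, and the exocyst median was -0.02.

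With passage as a block more list genes passed, as did more genes overall. Of the 76 list genes, 23 (30.3%) passed in Rspo1 tdTom-negative against untreated cells, where 35.5% of all tested genes did. Between the sorted fractions 31 (40.8%) passed against 38.9%, and between Rspo1 tdTom-positive and untreated cells 7 (9.21%) against 13.2%. In Rspo1 tdTom-negative against untreated cells 1 SNARE or Sec1/Munc18 gene passed higher and 4 lower, 2 C2-domain or priming genes higher and 4 lower, and 1 exocyst gene higher and 5 lower. Between the sorted fractions 5 Rab27 effectors or regulators passed higher and 3 lower, and 4 C2-domain or priming genes higher and 4 lower. Between Rspo1 tdTom-positive and untreated cells 2 other secretory Rabs, 1 SNARE or Sec1/Munc18 gene and 3 C2-domain or priming genes passed, all lower, beside Mlph. With the GC and length offset and no block, 3 list genes passed between Rspo1 tdTom-negative and untreated cells (1 Rab27 effector or regulator, lower, and 2 C2-domain or priming genes, 1 in each direction), or 3.95% of the list genes against 7.81% of all tested genes.

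**Figure D5:**
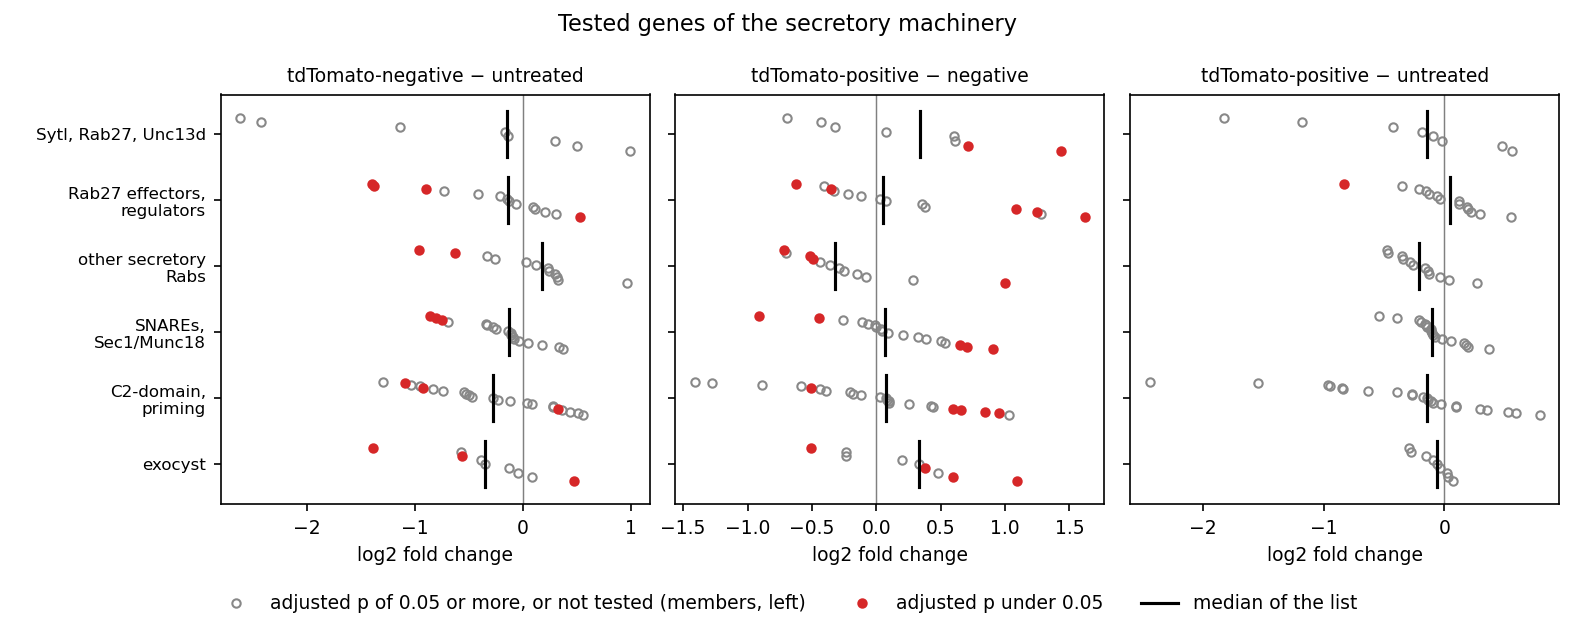
Log2 fold change (x) of each tested gene in 6 lists (rows) for 3 comparisons of groups; filled red points passed at an adjusted p under 0.05, open points did not, members in the left panel are all open because that comparison chose them, and black bars are list medians. In the right panel Mlph at -0.83 is the only filled point.

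Across the 9 libraries the log2 CPM of Sytl5 and Rab27b had a Pearson r of 0.94 and that of Sytl2 and Sytl5 of 0.776. Sytl1 and Unc13d had an r of 0.853, and Sytl1 and Sytl4 of -0.879. These are descriptions over 9 libraries that share groups, passages and base composition trends. Sytl2 and Sytl5 were chosen for lower values in Rspo1 tdTom-negative than in untreated libraries, which are among the 9. Nothing is therefore read from any r here that includes either gene. Of the 11660 genes with a mean log2 CPM above 2, the 5 most like Sytl2 included Zfp608 (r = 0.977), Arrdc3 (0.970), Sema3e (0.968) and Tgfa (0.961), the last a ligand of the EGF receptor. The 5 most like Sytl5 were Frrs1 (0.983), Chd9 (0.981), Samd8 (0.978), Cdc42bpa (0.973) and Rabgap1 (0.966), the last a GTPase-activating protein for Rabs.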

How the data were processed

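RNA sequencing counts of 9 libraries, 3 groups of 3, were used. Per the file headers, each deposited file holds raw counts per gene and FPKM per gene, and the count to FPKM ratio between libraries followed a median-of-ratios size factor. The authors' deposited tables hold log2 fold changes and their errors, each raw p-value and its adjusted form, a mean signal of normalized counts and a test score, named as DESeq2 output. Trimmomatic 0.35, FastQC 0.11.2, STAR 2.5.1b, featureCounts, DESeq2 and GRCm38 are named in the submitters' processing notes; the strand setting and the annotation are not given in the sources used here.

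The tests used edgeR 4.0.16 under R 4.3.3 (TMM scaling, filterByExpr with minimum count 10 and minimum total count 15, quasi-likelihood F-test, 1 fit of all 9 libraries on group, Benjamini-Hochberg adjustment over 17011 genes, threshold 0.05). The standard error is the log2 fold change divided by the square root of F. Passage was tested in a fit of group and passage. CPM use TMM-scaled library sizes. FPKM entered no test. DESeq2 1.42.0 was an alternative, as were other scalings, no filter, a passage block, only the compared libraries, an offset for transcript GC content and length (GENCODE M21, GRCm38; 17001 of 17011 tested genes had both), and each library left out; fits without passage 6 or 10 were added after seeing the data. Figures were drawn with matplotlib.

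Replicate numbers are passages in the labels. After removal of group means, log2 CPM correlated at 0.123 to 0.573 in 9 same-passage pairs and -0.476 to 0.0826 in 18 other pairs, so blocked values stand beside results whose call they change. Replicates differed by far more than sampling noise (chi-square per gene 37.7 to 334). On simulated counts for Rspo1 tdTom-negative against untreated (17011 genes), 96 of 100 genes changed 4-fold and 65 of 100 changed 2-fold were recovered. The simulated libraries were independent, with the average spread at each expression level and no passage or GC trend. The recovery in the real data, and for the members, can therefore differ.

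The members and the gene lists were chosen with earlier results of these data known. Genes named are the 9 members, Axin2, the first 6 genes of each marker list, for each list and comparison up to 2 genes with the largest rise and 2 with the largest fall among those that passed, and the 5 genes whose log2 CPM had the highest Pearson r with Sytl2 or Sytl5. Fgb and Csf1r, also named, were added after their values were seen. A gene that the likeness rule would also name is not reported here.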

Additional observations from a re-analysis of the deposited data

How the results depend on the processing

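In Rspo1 tdTom-positive against untreated cells the direction of Sytl2 and Sytl5 was the same in all 16 alternatives run for each group comparison. The alternatives reuse the same libraries, and the untreated ones are shared with the choice of the genes. It also stayed the same in Rspo1 tdTom-negative against untreated cells, from which nothing is read, as that comparison chose the genes. Member counts in the first comparison below are a description from which nothing is read, as it chose the genes. With the replicate block (passage), 5 members and 6039 genes passed in Rspo1 tdTom-negative against untreated cells (3 and 3724 without it), 4 and 6624 in Rspo1 tdTom-positive against Rspo1 tdTom-negative (2 and 4141), and 2 and 2247 in Rspo1 tdTom-positive against untreated (0 and 886). The GC and length offset gave 1 member and 1329 genes in the first and 0 and 1436 in the second; with the block added, 1 member passed in the second and 3 members and 2750 genes in the third. Only the 6 libraries compared gave 2299 genes in the first. Passages 5 and 10 alone gave 1 member in the first and 1 in the second, and 284 genes in the third. Passages 5 and 6 alone gave 1059 genes in the first, 0 members and 1075 genes in the second, and 1 member and 431 genes in the third. Without the filter, 2 members and 1446 genes passed in the third, and DESeq2 gave 1506 genes. For passage 10 against 5 (2 members and 1543 genes), RLE scaling gave 1 member, no filter 4 members and 2784 genes, and DESeq2 4 members; for passage 6 against 5 (0 and 423), no filter gave 1 and 1193, and DESeq2 1 and 851.

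Leaving out each library in turn gave 2 to 3 members (a description, as above) and 1800 to 3772 genes in the first comparison, 0 to 2 and 2061 to 4068 in the second, 0 and 390 to 899 in the third, 1 to 2 and 405 to 702 for passage 10, and 0 to 1 and 105 to 846 for passage 6. The lowest counts came without Rspo1 tdTom-negative replicate 3, Rspo1 tdTom-positive replicate 1 and Rspo1 tdTom-positive replicate 2 for the 3 group comparisons, and without Rspo1 tdTom-negative replicate 1 and untreated replicate 1 for the passages. The share of passing genes that were higher was 36.5% in the first comparison, 49.5% with upper-quartile scaling and 50.6% with the offset, and in the second 59.8% and, with the offset, 40.7%. The cause of these shifts was not tested.

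Values that reversed were small or lay between the sorted fractions. In Rspo1 tdTom-positive against Rspo1 tdTom-negative, Rab27b was -0.34 with the offset and -0.32 with the offset and block, Rab27a -0.0913 and -0.0921, and Sytl2 -0.14 to 1.08 over left-out libraries. In Rspo1 tdTom-positive against untreated, Unc13d was 0.0213 with the block, 0.00087 with upper-quartile scaling, 0.0019 without the filter and 0.10 in passages 5 and 6 alone, and -0.24 to 0.25 over left-out libraries. Rab27a there was 0.0898 in passages 5 and 10 alone, and -0.25 to 0.0012 over left-out libraries. Over left-out libraries Rab27a was -0.10 to 0.24 for passage 10 and -0.21 to 0.14 for passage 6 (-0.0115 without the filter), and Sytl2 -0.64 to 0.037 for passage 6. Depth limits Sytl3 (16 to 36 counts), Sytl4 (32 to 114 counts) and Myrip.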
